A study of Mus musculus with 14 samples.

Results

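The genes described here make, package and recapture the fast transmitters of the spinal cord. They are 10 genes: Chat, Slc18a3, Slc5a7 and Ache for acetylcholine, Gad1, Gad2 and Slc32a1 for GABA, Slc6a5 for glycine, and Slc17a6 and Slc17a7 for glutamate. They were taken as a list of names with no threshold on a value, although earlier results of these data were known when the list was drawn up, and each was found through its RefSeq accession at a single locus among the 23152 loci of each RNA-seq table, of which 22766 could be given a symbol. FPKM, the unit of every level below, is a count of fragments scaled to transcript length and to the mapped fragments of the library. Each of the 10 passed 1 FPKM somewhere among the 11 RNA-seq libraries, although no gene did so in all of them.

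A neuron's transmitter is read from the enzyme that makes it and from the transporter that loads it into synaptic vesicles. Motor neurons of the spinal cord use acetylcholine: choline acetyltransferase (Chat) makes it from choline, the vesicular acetylcholine transporter (VAChT, gene Slc18a3) packages it, the choline transporter (Slc5a7) takes choline back up, and acetylcholinesterase (Ache) ends the signal. Inhibitory interneurons use GABA, made by the glutamate decarboxylases Gad1 and Gad2, or glycine, gathered by the transporter GlyT2 (Slc6a5), and both are loaded by the same vesicular transporter (Slc32a1). Excitatory neurons load glutamate through VGLUT2 (Slc17a6) or VGLUT1 (Slc17a7).

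The study asked how TAF9B, a subunit shared by the core promoter factor TFIID and the coactivator SAGA, bears on neuronal gene expression. Mouse ES cells of the C57BL/6 background, wild type (WT, JM8 clone) or labelled TAF9B -/- (KO, Taf9b_BG10 clone), were sequenced as ES cells and as embryoid bodies (EBs) at day 2, day 4 (neuronal progenitors by the label) and day 6 (motor neurons by the label), differentiated with retinoic acid and a smoothened agonist. Newborn lumbar spinal column of both genotypes, which holds vertebrae and muscle besides the cord, and newborn WT spinal cord were sequenced as tissues. The columns were from littermates, and the level of the spinal cord sample is not given. RNA POL2 and TAF9B ChIP-seq were made in WT motor neuron EBs of another line (HBG3 clone), differentiated for 8 days. Each genotype of the cultures was 1 clone, and each condition was 1 library, so no value below has an error and no difference was tested. A gene was counted as past 2-fold when either of the libraries compared had it above 1 FPKM and their values differed more than 2-fold. Reads per library cannot be recovered from these tables, so the depth is unknown. Summed FPKM ran from 411263 to 774507 per library, and 11668 to 13591 loci were above 1 FPKM.

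The targeted gene did not follow the labels in the cultures. Taf9b was listed at 0.537 FPKM in ES cells of WT and at 3.06 FPKM in those labelled KO, at 0.516 and 4.08 FPKM at day 2, at 1.96 and 4.27 FPKM at day 4, and at 1.37 and 4.01 FPKM at day 6. In spinal column it was 6.65 FPKM in WT and 3.31 FPKM in the library labelled KO. The KO allele replaces the protein-coding exons, and a value per gene does not say which of its exons the reads came from. The KO libraries are therefore called libraries labelled KO throughout.

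Markers of the labelled cell types stood out at day 4, at day 6 and in the tissues, but did not change steadily over the days. In WT, the 6 neural progenitor genes summed to 27.8 FPKM in ES cells and 20.6 FPKM at day 2. They stood at 333.5 FPKM at day 4 and 122.9 FPKM at day 6. The 9 general neuron genes that were matched (Tubb3, Map2 and others) summed to 173 FPKM in WT ES cells, 100.9 FPKM at day 2, 36.7 FPKM at day 4 and 831 FPKM at day 6 in WT EBs, and 1905 FPKM in spinal cord. The motor neuron transcription factors Isl1, Isl2, Mnx1, Lhx3 and Lhx4 were all above 1 FPKM in WT EBs at day 6, where they summed to 45.0 FPKM. The 4 pluripotency genes summed to 1261 FPKM in WT ES cells, 975 FPKM at day 2, 26.2 FPKM at day 4 and 293 FPKM at day 6, so that WT EBs had more of them at day 6 than at day 4. The 4 epithelial genes likewise stood at 93.8 FPKM at day 4 and 172 FPKM at day 6. Spinal cord carried some muscle transcript (Acta1 at 112 FPKM). In bulk RNA from cultures and tissues such as these, fewer neurons of a kind and less RNA per neuron cannot be told apart.

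Chat and Slc18a3 form a shared locus on chromosome 14, and its sequence is shown because the cholinergic pair carries the main difference found in the EBs. Both are on the minus strand of mm9, Chat from position 33279095 and Slc18a3 from position 33278036, so that Slc18a3 starts 1059 bp inside Chat, in its first intron. The tables give both genes the same locus, chr14:33221389-33279095, and a gene on the other strand, Gm2990, overlaps it. The promoters below are RefSeq promoter sequences (GRCm38.p6) that matched the mm9 genome exactly, read 5′ to 3′ on the gene's strand, from 250 bases before the start to 50 after it. Capitals mark any of 6 short motifs searched on both strands: the TATA box TATAAA, the GC box GGGCGG, the E-box CAGATG, a second E-box that reads CAGCTG on both strands, the homeodomain core TAATTA and TTCAGCACC, the left part of the REST site.
Chat, chr14:33279046-33279345: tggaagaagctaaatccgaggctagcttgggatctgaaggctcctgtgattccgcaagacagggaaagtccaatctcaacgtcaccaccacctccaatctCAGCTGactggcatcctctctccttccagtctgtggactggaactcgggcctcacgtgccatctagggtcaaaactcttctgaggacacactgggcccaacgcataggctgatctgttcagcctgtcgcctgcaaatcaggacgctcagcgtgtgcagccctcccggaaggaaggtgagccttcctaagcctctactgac
Slc18a3, chr14:33277987-33278286: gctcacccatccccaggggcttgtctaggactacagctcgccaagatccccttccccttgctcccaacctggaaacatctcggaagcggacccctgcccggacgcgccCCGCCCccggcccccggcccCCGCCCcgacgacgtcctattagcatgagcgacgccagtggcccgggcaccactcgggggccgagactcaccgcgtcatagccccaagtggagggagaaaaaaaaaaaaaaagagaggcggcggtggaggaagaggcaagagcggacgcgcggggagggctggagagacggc
The Chat promoter held only the E-box CAGCTG, a motif found in 16.3% of 32851 RefSeq promoters. The Slc18a3 promoter held GC boxes and none of the other motifs, and 35.7% of promoters held at least 1 GC box. Neither held TATAAA, present in 13.6% of promoters, or the REST motif, present in 0.371%. Among the 10 genes, TATAAA lay in the promoters of Gad1 and Slc5a7, TAATTA (in 5.29% of all promoters) only in that of Slc17a6 and the REST motif in none. CAGATG, present in 17.2% of promoters, lay in those of 4 of the 10 (Gad2, Slc17a6, Slc5a7 and Slc6a5), and the GC box in those of 5 of the 10 (Ache, Gad1, Slc17a6, Slc17a7 and Slc18a3). A match describes the letters of this window and not a bound factor.

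TAF9B peaks of motor neuron EBs lay near part of the genes. The letters under 4 of them, both peaks near Chat and the peak nearest to the starts of Ache and of Slc17a7, are shown as 200-bp mm9 windows on the plus strand, centred on each peak, with the same motifs in capitals. The first lies inside an intron of Chat, the second upstream of Chat, the third in an exon of Ache, 1.03 kb from its start, and the fourth upstream of Slc17a7.
Chat intron, chr14:33253033-33253232: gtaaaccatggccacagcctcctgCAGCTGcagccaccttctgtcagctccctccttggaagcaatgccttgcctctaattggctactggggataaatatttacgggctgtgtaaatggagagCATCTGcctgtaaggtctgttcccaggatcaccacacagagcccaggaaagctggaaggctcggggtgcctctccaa
Chat upstream, chr14:33286288-33286487: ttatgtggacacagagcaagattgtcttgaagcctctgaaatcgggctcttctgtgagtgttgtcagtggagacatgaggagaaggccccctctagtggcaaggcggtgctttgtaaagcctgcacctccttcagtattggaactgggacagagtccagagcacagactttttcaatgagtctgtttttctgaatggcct
Ache, chr5:137730415-137730614: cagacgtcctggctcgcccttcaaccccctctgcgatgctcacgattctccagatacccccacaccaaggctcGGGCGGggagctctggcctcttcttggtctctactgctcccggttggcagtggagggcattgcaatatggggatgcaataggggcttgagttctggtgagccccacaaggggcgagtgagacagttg
Slc17a7 upstream, chr7:52417369-52417568: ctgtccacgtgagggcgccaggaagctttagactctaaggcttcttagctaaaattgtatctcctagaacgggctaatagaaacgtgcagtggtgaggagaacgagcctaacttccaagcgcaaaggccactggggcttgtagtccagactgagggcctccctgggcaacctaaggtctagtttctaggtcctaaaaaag
The intronic Chat window held an E-box of each kind, the second of them on the minus strand. CAGCTG occurred in 17.1% and the letters CAGATG in 13.2% of the 10402 TAF9B windows of this length that could be read from the genome. The Ache window held a single GC box, a motif that 30.9% of windows held at least once, and the windows upstream of Chat and of Slc17a7 held none of the 6 motifs.

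Most of the 10 genes were higher in every tissue library than in every culture, but not Slc18a3, Chat and Slc17a7. Slc5a7 did so only narrowly, at 1.17 FPKM in spinal column labelled KO against 1.10 FPKM in ES cells labelled KO. The share of all genes that separate cultures from tissues was not counted. None of the 10 genes was above 1 FPKM in any of the 4 libraries of EBs at day 2 or day 4. In ES cells Gad1 and Slc5a7 alone were above it, in both libraries. In WT EBs at day 6, 4 of the 10 genes were above 1 FPKM, against 1 of 10 in the library labelled KO. In the tissues, 9 of 10 genes were above 1 FPKM in each spinal column library and 8 of 10 in spinal cord. Summed over the 10 genes, the level was 5.77 FPKM in WT ES cells, 38.9 FPKM in WT EBs at day 6, 122 FPKM in WT spinal column and 288 FPKM in spinal cord.

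**Figure D1:**
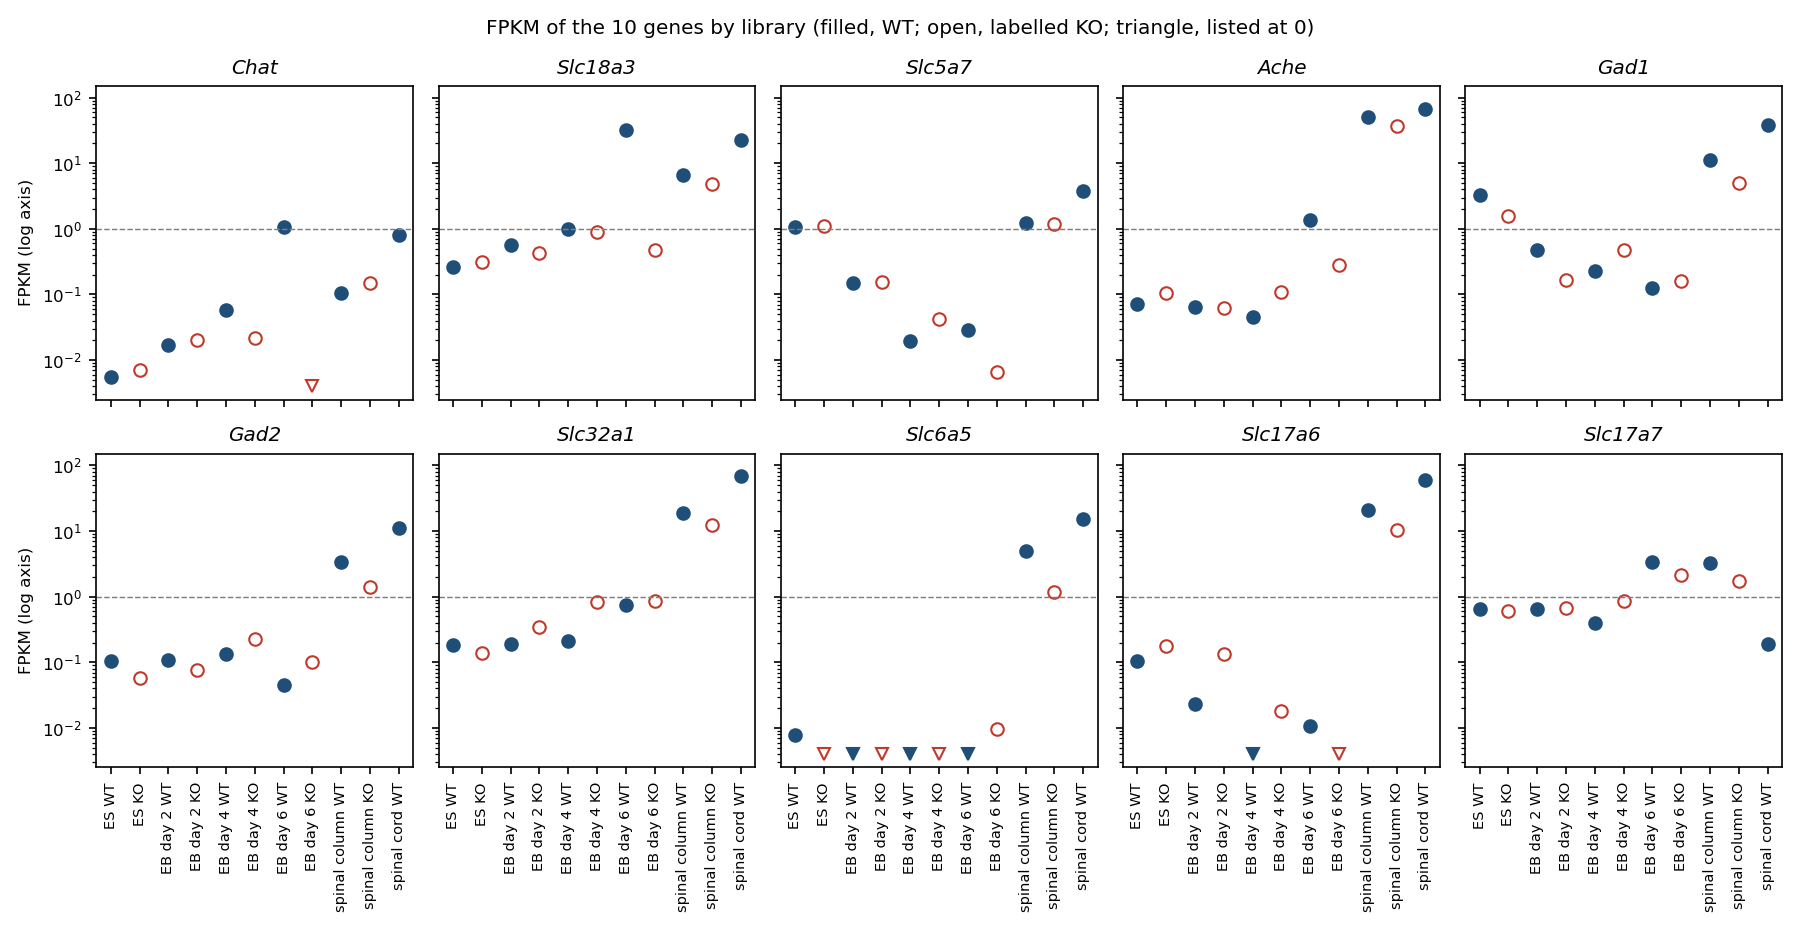
FPKM on a log axis of each of the 10 genes in the 11 RNA-seq libraries, 1 point per library, with WT filled, libraries labelled KO open and values listed at 0 drawn as triangles at the bottom. The dashed line is 1 FPKM. Slc18a3 stands at 32.2 FPKM in WT EBs at day 6 against 0.479 FPKM in the library labelled KO, whereas Slc6a5 and Slc17a6 are near or at 0 in every culture and at 15.1 and 59.3 FPKM in spinal cord.

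Slc18a3, the packager of acetylcholine, was the most abundant of the 10 genes in WT EBs at day 6. It was at 0.265 FPKM in WT ES cells and 0.312 FPKM in ES cells labelled KO, at 0.571 and 0.421 FPKM at day 2, at 0.984 and 0.886 FPKM at day 4, and at 32.2 and 0.479 FPKM at day 6. In the tissues it was at 6.50 FPKM in WT spinal column, 4.78 FPKM in spinal column labelled KO and 22.5 FPKM in spinal cord. The WT EBs at day 6 were thus the highest of the 11 libraries, above the cord, and the other 7 culture libraries were below 1 FPKM.

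Chat, the enzyme that makes acetylcholine, followed the same order of WT libraries at a far lower level. It was at 0.0055 FPKM in WT ES cells, 0.0170 FPKM at day 2, 0.0586 FPKM at day 4 and 1.05 FPKM at day 6, and in the libraries labelled KO at 0.00701, 0.0201 and 0.0216 FPKM up to day 4 and at 0 at day 6. In spinal column it was at 0.107 FPKM in WT and 0.1496 FPKM labelled KO, and in spinal cord at 0.791 FPKM. Day 6 WT was the only library in which Chat passed 1 FPKM, and only just, so its place above that limit is fragile. FPKM is per length of transcript, and on that scale Slc18a3 was 30.6 times Chat in WT EBs at day 6, 28.4 times in spinal cord, and 60.8 and 32.0 times in spinal column of WT and labelled KO. The strand of counting was not stated, so reads of overlapping transcripts at this locus may not be assigned to the right gene.

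Slc5a7 and Ache did not share that pattern. Slc5a7, which returns choline to the terminal, was at 1.08 FPKM in WT ES cells and 1.10 FPKM labelled KO, and lower on every later day than in ES cells: 0.151 and 0.156 FPKM at day 2, 0.0196 and 0.0423 FPKM at day 4, and 0.0286 and 0.00658 FPKM at day 6. It was at 1.23 and 1.17 FPKM in spinal column and 3.78 FPKM in spinal cord. Both cultures at day 6 thus had less Slc5a7 than the ES cells they came from, and spinal column was close to the ES cells. The ES cells were grown on feeder layers of embryonic fibroblasts, and Col1a1, a collagen gene of fibroblasts, was at 158 FPKM in WT ES cells, 11.6 FPKM at day 2, 1.23 FPKM at day 4 and 17.0 FPKM at day 6. The part of feeder cells in the ES cell levels of Slc5a7 and Gad1 was not tested.

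Ache, which breaks acetylcholine down, was below 0.11 FPKM in all 6 libraries of ES cells and of EBs at day 2 and day 4. At day 6 it was at 1.36 FPKM in WT and 0.280 FPKM in the library labelled KO. It was the highest of the 10 genes in spinal column, at 51.1 FPKM in WT and 36.5 FPKM labelled KO, and reached 67.9 FPKM in spinal cord. Ache is known to be made by muscle as well as by neurons, and it was the gene with the smallest difference between column and cord among the 10.

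The GABA genes were low in every culture. Gad1 was at 3.30 FPKM in WT ES cells and 1.59 FPKM labelled KO, at 0.472 and 0.165 FPKM at day 2, 0.229 and 0.472 FPKM at day 4, and 0.124 and 0.160 FPKM at day 6. In spinal column it was at 11.2 FPKM in WT and 4.94 FPKM labelled KO, and in spinal cord at 38.8 FPKM. Its locus in the tables, chr2:70327997-70440069, is overlapped by 3 other annotated genes, 2 of them on the other strand, so the low values in cultures are uncertain in their origin.

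Gad2, the other decarboxylase, was between 0.0459 FPKM (WT EBs at day 6) and 0.230 FPKM (EBs labelled KO at day 4) in the 8 cultures. It was at 3.35 FPKM in WT spinal column, 1.41 FPKM labelled KO and 11 FPKM in spinal cord. The ratio of Gad1 to Gad2 was nearly the same in the 3 tissue libraries, at 3.36 in WT column, 3.51 in column labelled KO and 3.53 in cord. The Gad2 locus is overlapped by 1 other annotated gene, so the origin of its low culture values is uncertain as well.

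Slc32a1, which loads both GABA and glycine, was at 0.186 and 0.140 FPKM in ES cells of WT and labelled KO, 0.190 and 0.347 FPKM at day 2, 0.210 and 0.831 FPKM at day 4, and 0.758 and 0.859 FPKM at day 6. In WT spinal column it was at 18.8 FPKM, in spinal column labelled KO at 12.4 FPKM and in spinal cord at 68.1 FPKM, where it was the highest of the 10 genes. The tissues did not overlap with the cultures. The Slc32a1 locus is overlapped by 1 annotated gene of the other strand, so the origin of its low culture values is uncertain too.

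Slc6a5, the glycine transporter that marks glycinergic neurons, was listed at 0 in 6 of the 8 cultures, at 0.00779 FPKM in WT ES cells and at 0.00949 FPKM in EBs labelled KO at day 6. It was at 4.99 FPKM in WT spinal column, 1.19 FPKM in spinal column labelled KO and 15.1 FPKM in spinal cord. Its lowest tissue value was above its highest culture value.

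The glutamate transporters went opposite ways in cultures and cord. Slc17a6 (VGLUT2), the form of most spinal excitatory neurons, was at 0.103 FPKM in WT ES cells and 0.179 FPKM labelled KO, at 0.0232 and 0.133 FPKM at day 2, at 0 and 0.0179 FPKM at day 4, and at 0.0108 FPKM and 0 at day 6. It was at 20.8 FPKM in WT spinal column, 10.4 FPKM labelled KO and 59.3 FPKM in spinal cord. No culture came near a tissue value.

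Slc17a7 (VGLUT1) was the reverse. It was at 0.642 and 0.615 FPKM in ES cells of WT and labelled KO, 0.654 and 0.677 FPKM at day 2, 0.397 and 0.861 FPKM at day 4, 3.37 and 2.18 FPKM at day 6, and 3.31 and 1.71 FPKM in spinal column. Spinal cord had the lowest of the 11 values, 0.189 FPKM. Slc17a6 was 314 times Slc17a7 in the cord, but 6.29 and 6.10 times in spinal column of WT and labelled KO. In spinal cord over ES cells Slc17a7 was the only one of the 10 genes with a lower value in the cord, by 1.89 on the log2 scale, with both libraries below 1 FPKM.

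Between WT ES cells and WT EBs at day 6, the cholinergic synthesis and packaging genes were higher while several others were lower. Of the 10 genes, 4 were higher past 2-fold, against 23.2% of the 13014 genes above 1 FPKM in either library, and 2 were lower, against 15.1%. These 6 were all of the 10 that passed 1 FPKM in either library, each of them only in the library where it was high, and 0 were left when both had to pass. Those higher were Chat (log2 ratio 7.58), Slc18a3 (6.92), Ache (4.24) and Slc17a7 (2.39), and those lower were Slc5a7 (-5.24) and Gad1 (-4.73). The median over the 10 genes was 0.41 (0.28 with 1 FPKM added and 0.74 with 0.1 FPKM), beside 0.20 over all genes above 1 FPKM and 3.69 over the 9 general neuron genes. These libraries come from separate tables, each normalized by itself.

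Between WT EBs at day 6 and spinal cord, most genes were higher in cord, but not the cholinergic pair. Slc18a3 (log2 ratio of cord over EBs -0.52) and Chat (-0.41) differed by less than 2-fold between the EBs and the cord. All 10 genes were above 1 FPKM in either library, and 7 were higher in cord past 2-fold, beside 26.1% of 14223 genes higher, and 1 was lower, beside 34.3% lower. The 7 included Slc17a6 (12.43), Gad1 (8.29), Gad2 (7.91), Slc5a7 (7.05), Slc32a1 (6.49) and Ache (5.65), and Slc6a5, for which the EBs are listed at 0. Slc17a7 was the lower one (-4.16). Most of these genes passed 1 FPKM only in the library where they were high, and with both libraries asked to pass 1 was higher and 0 were lower. The median was 6.77 (3.76 with 1 FPKM added), beside -0.37 over all genes and 2.92 over the general neuron genes. In the same comparison 4 of the 5 motor neuron factors were lower in cord past 2-fold and none was higher, from 45.0 FPKM in sum to 10.8 FPKM.

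**Figure D2:**
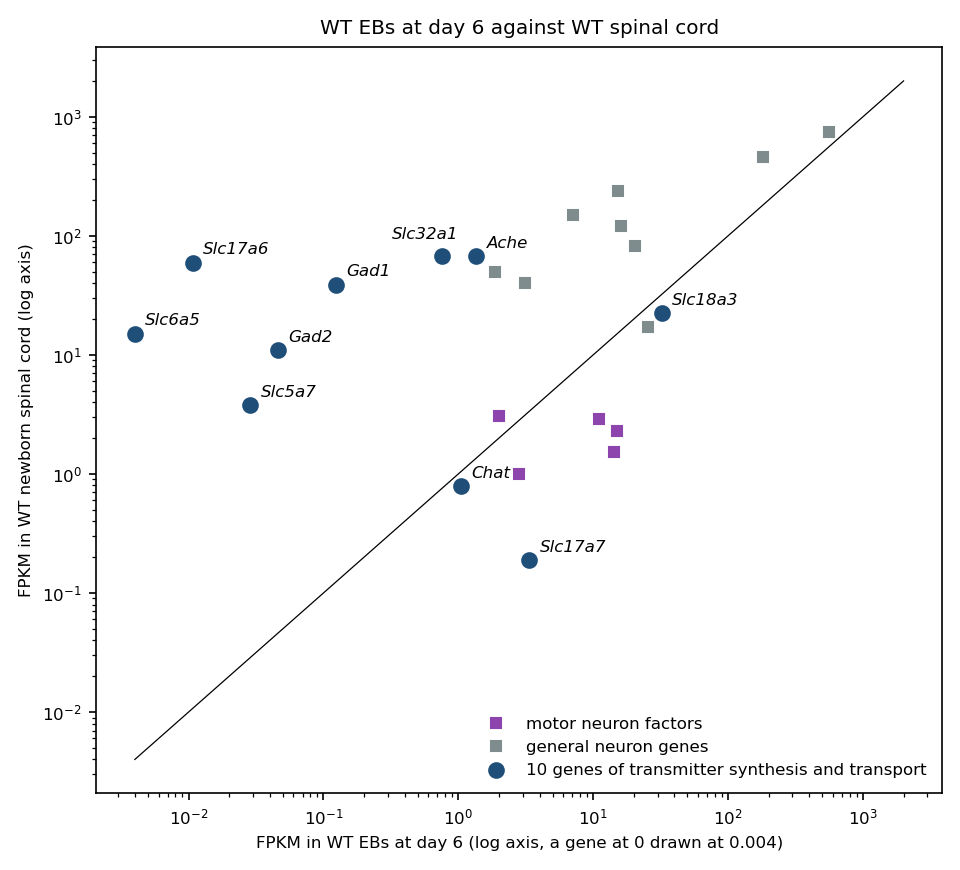
FPKM in WT EBs at day 6 (horizontal, log axis) against WT newborn spinal cord (vertical, log axis), 1 point per gene, for the 10 genes (circles), the 5 motor neuron factors and the 9 general neuron genes (squares). The line marks equal levels. Slc18a3 (32.2 and 22.5 FPKM) and Chat (1.05 and 0.791 FPKM) lie beside the line, 7 genes lie far above it, and Slc17a7 (3.37 and 0.189 FPKM) lies below it.

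Spinal cord against ES cells, which share a table, gave 8 of the 10 genes higher past 2-fold, beside 30.5% of 14348 genes higher, and 0 lower, beside 35.7% lower. The largest log2 ratios were those of Slc6a5 (10.80), Ache (9.76), Slc17a6 (9.04) and Slc32a1 (8.39). Slc5a7 (1.68) and Gad1 (3.43) had the smallest ratios of the 8, and both were above 1 FPKM in the ES cells. They were the 2 left when both libraries had to pass 1 FPKM. The median was 6.81 (3.71 with 1 FPKM added), beside -0.26 over all genes and 5.04 over the general neuron genes.

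The shares of acetylcholine, of GABA and glycine and of glutamate among the vesicular transporter genes named below summed these levels up for each library. The vesicular transporters of monoamines, Slc18a1 and Slc18a2, were not in the sum. In EBs at day 6 Slc18a1 was at 0.578 FPKM in WT and 0.668 FPKM labelled KO, and Slc18a2 at 1.66 and 0.299 FPKM. In WT EBs at day 6, Slc18a3 made up 88.6% of the summed FPKM of Slc18a3, Slc32a1, Slc17a6 and Slc17a7, Slc32a1 made up 2.09% and the glutamate transporters 9.31%. In spinal cord the shares were 15.0% for acetylcholine, 45.4% for GABA and glycine and 39.7% for glutamate. WT spinal column had 13.1%, 38.1% and 48.8% in the same order, and spinal column labelled KO had 16.3%, 42.4% and 41.3%. In EBs labelled KO at day 6 the shares were 13.6%, 24.4% and 61.9%, but of a sum of only 3.51 FPKM, against 36.3 FPKM in WT. With Chat counted in place of Slc18a3, the acetylcholine share in WT EBs at day 6 was 20.2%, against 0.616% in the cord, and glutamate was then the largest share in those EBs, at 65.2%.

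**Figure D3:**
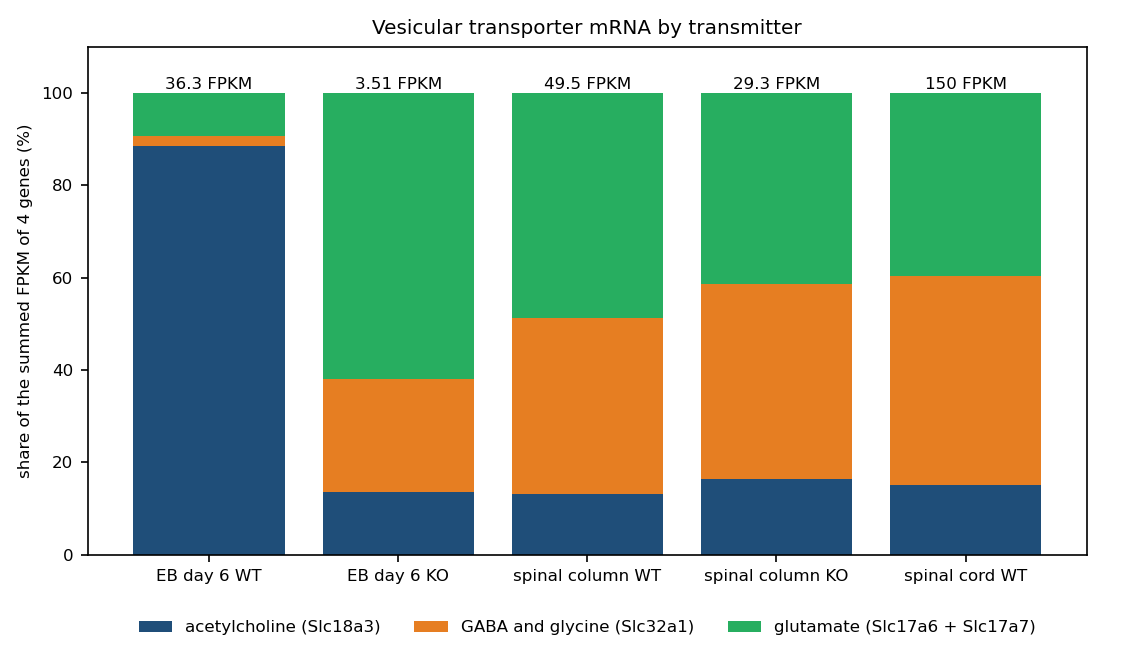
Share (in percent) of acetylcholine, of GABA and glycine and of glutamate in the summed FPKM of the vesicular transporter genes Slc18a3, Slc32a1, Slc17a6 and Slc17a7. Each library is 1 stacked bar, with the summed FPKM above it. Acetylcholine holds 88.6% of the bar in WT EBs at day 6 and 13.1% to 16.3% in the other 4 libraries.

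In ES cells and at day 2 few of these genes were high enough to compare the libraries labelled KO and WT. In ES cells 2 of the 10 were above 1 FPKM, and 1 of the 10 genes was lower past 2-fold, Gad1 (log2 ratio -1.05), beside 0.591% of 12019 genes lower, and 0 were higher, beside 0.541% higher. With 1 FPKM added to each value, Gad1 was at -0.73 and no longer past 2-fold. At day 2, 0 were lower, beside 1.40% of 11951 genes, and 0 were higher, beside 1.19%, but none of the 10 was above 1 FPKM, so none could be counted. The same held at day 4, with 0 lower beside 4.43% of 12543 genes and 0 higher beside 12.1%. At day 4 the median log2 ratio over the 9 genes with a value was 1.11, but all of them were under 1 FPKM, and with 1 FPKM added to each value the median was 0.06. In that comparison the neural progenitor genes differed more clearly, since the library labelled KO had 5 of 6 lower past 2-fold (Hes5 at 3.61 against 71.0 FPKM). The 4 pluripotency genes and the 4 epithelial genes were all higher past 2-fold there, at 167.5 against 26.2 FPKM and 419 against 93.8 FPKM in sum, and so was 1 of the 5 motor neuron factors, Mnx1 (5.01 against 2.32 FPKM).

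At day 6, Slc18a3, Chat and Ache were lower with the KO label, and so were general neuron genes. Of the 10 genes, the library labelled KO had 3 lower past 2-fold, beside 9.93% of 12985 genes lower, and 0 were higher, beside 10.5% higher. Of the 10, 4 were above 1 FPKM in either library, and the 3 were above it in WT alone, so that 0 were left when both libraries had to pass. They were Slc18a3 (log2 ratio -6.07, 32.2 against 0.479 FPKM), Ache (-2.28, 1.36 against 0.280 FPKM) and Chat (1.05 FPKM against a value listed at 0). Slc17a7, the other gene above 1 FPKM, was at 3.37 and 2.18 FPKM, a log2 ratio of -0.63. With 1 FPKM added to each value, Slc18a3 was at -4.49, Ache at -0.88 and Chat at -1.04, so that 2 of the 10 were past 2-fold. The median over the 10 genes was -1.38, beside -0.003 over all genes, but 6 of the 10 were under 1 FPKM in both libraries and with 1 FPKM added the median was -0.02.

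At day 6, the library labelled KO was lower past 2-fold for all 9 general neuron genes, with a median log2 ratio of -3.70. Slc18a3 was 2.38 further down than that median on the log2 scale, while Ache lay 1.42 above it and Slc17a7 3.06 above it. Slc18a3 was 1.81 further down than the neuron median when 1 FPKM was added to each value. All 5 motor neuron factors were lower as well, with a median of -4.32, among them Lhx3 (14.9 against 0.335 FPKM) and Isl1 (11 against 0.549 FPKM). All 6 neural progenitor genes were lower past 2-fold too, with a median of -2.45 and a sum of 19.2 against 122.9 FPKM. The 4 pluripotency genes and the 4 epithelial genes were all higher in the library labelled KO, with medians of 1.58 and 2.36, and their sums were 823 against 293 FPKM and 1095 against 172 FPKM. The part of cell makeup in the cholinergic difference was not tested.

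**Figure D4:**
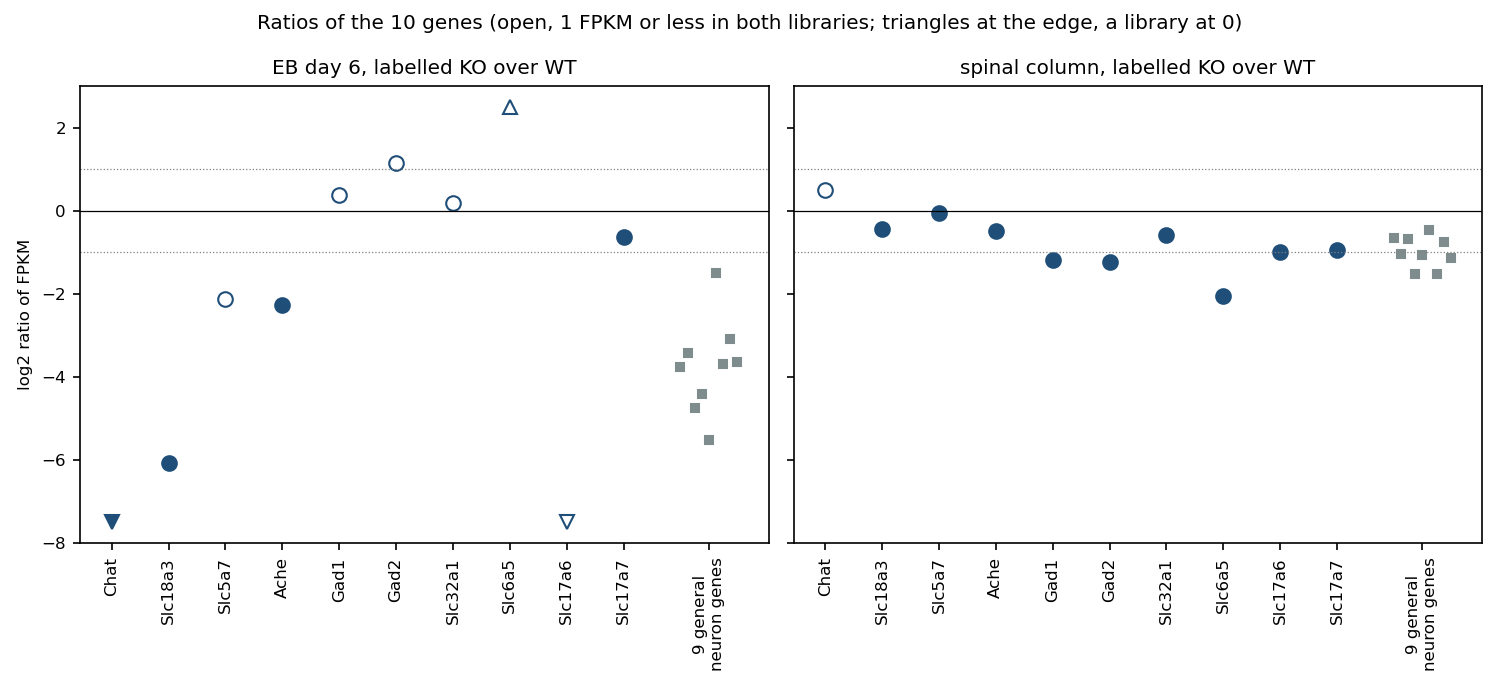
Log2 ratio of FPKM, library labelled KO over WT, for the 10 genes (circles, open where both libraries were at or below 1 FPKM) and 9 general neuron genes (squares), in EBs at day 6 (left) and newborn spinal column (right). Triangles at the edge are genes listed at 0 in 1 library and have no ratio, and dotted lines mark 2-fold. At day 6 Slc18a3 lies at -6.07, below all 9 neuron genes, and in spinal column Slc6a5 lies lowest, at -2.06.

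In spinal column, Slc6a5, Gad1, Gad2 and Slc17a6 were lower past 2-fold where the label was KO, whereas Slc18a3, Slc5a7 and Ache were within 2-fold. Of the 10 genes, 4 were lower past 2-fold, beside 8.51% of 14194 genes lower, and 0 were higher, beside 9.07% higher. They were Slc6a5 (log2 ratio -2.06), Gad2 (-1.25), Gad1 (-1.19) and Slc17a6 (-1.001). Slc17a6 was just inside the limit at 2-fold, and Slc17a7 just outside it (-0.96). With 1 FPKM added to each value, Gad2 (-0.85) and Slc17a6 (-0.94) were no longer past 2-fold and 2 of the 4 were left. Slc32a1 (-0.60), Ache (-0.49), Slc18a3 (-0.44) and Slc5a7 (-0.06) were closer to WT, and Chat was below 1 FPKM in both libraries. The median over the 10 genes was -0.78, beside 0.06 over all genes above 1 FPKM and -1.04 over the general neuron genes.

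Relative to the general neuron median of the column, Slc6a5 lay below and the cholinergic genes above 1 FPKM lay above. Slc6a5 was 1.03 below that median on the log2 scale, Gad2 0.21 below and Gad1 0.15 below. With 1 FPKM added to each value, Slc6a5 was 0.53 below and Gad2 was 0.07 above. Slc17a6 and Slc17a7 lay on it (0.04 and 0.08 above), and Slc32a1 (0.44), Ache (0.55), Slc18a3 (0.59) and Slc5a7 (0.97) lay above. Of the 9 neuron genes, 5 were lower past 2-fold, and their sum was 521 FPKM in the library labelled KO against 842 FPKM in WT. Of the 4 epithelial genes, 2 were higher there past 2-fold, beside 9.07% of all genes. The 4 summed to 19.5 against 7.92 FPKM, with Epcam at 4.14 against 0.428 FPKM. The 4 cartilage and bone genes summed to 1010 against 1696 FPKM, but 0 were past 2-fold and Ibsp was higher (168 against 109 FPKM). Of the 5 motor neuron factors, 1 was lower past 2-fold, Isl2 at 7.46 against 19.7 FPKM, and in sum they were at 13.0 against 28.5 FPKM, with a median log2 ratio of -1.38. Isl1 and Isl2, which sensory neurons use as well, made up most of that sum, and Mnx1, Lhx3 and Lhx4 were under 1 FPKM in both columns. Of 11 monoamine neuron genes, 3 were lower past 2-fold and 1 was higher, the lower ones being Dbh (4.46 against 11.8 FPKM), Th (4.18 against 10.2 FPKM) and Slc6a2, the noradrenaline transporter (0.864 against 4.43 FPKM). Slc10a4, a vesicle protein of cholinergic and monoaminergic terminals, was lower past 2-fold as well (-1.24). It was the only 1 of 4 further cholinergic genes past 2-fold, beside 8.51% of all genes lower. The median over the 4 was -0.22. The part of tissue makeup in these differences was not tested.

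In WT spinal column, most of these transcripts were at lower levels than in WT spinal cord. Of the 10 genes, 7 were lower in the column past 2-fold, beside 16.0% of 14111 genes lower, and 1 was higher, beside 17.3% higher. The 7 lay in a narrow range of log2 ratios, from -1.86 (Slc32a1) to -1.51 (Slc17a6), with Gad1 at -1.79, Slc18a3 at -1.79, Gad2 at -1.72, Slc5a7 at -1.62 and Slc6a5 at -1.60. The general neuron genes had a median of -1.23. Chat was lower still (-2.89), but under 1 FPKM in both libraries. Ache stood apart at -0.41, and Slc17a7 was the gene higher in the column, at 3.31 against 0.189 FPKM (4.13), and was above 1 FPKM only there. All 4 cartilage and bone genes matched were higher past 2-fold in the column, such as Col1a1 at 1423 against 68.9 FPKM. Of 5 muscle genes, 2 were higher past 2-fold, such as Tnnt3 at 2927 against 23.6 FPKM, and 3 (Acta1, Ckm and Myh8) carry Cuffdiff's mark for too many reads in the column table, where a value of 0, as listed for Acta1 and Myh8 in WT, is no measurement. Genes of monoamine neurons were too: 8 of 11 were higher past 2-fold and none was lower, among them Th (10.2 against 0.674 FPKM) and Dbh (11.8 against 0.0315 FPKM), enzymes of noradrenaline synthesis that sympathetic neurons use. The motor neuron factors were split, with Isl1 (7.57 against 2.91 FPKM) and Isl2 (19.7 against 3.07 FPKM) higher in the column and 2 others lower past 2-fold. These libraries come from separate tables.

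Other genes of the same transmitters were taken from lists of genes with known roles in them. Of 4 further cholinergic genes, 3 were lower in EBs labelled KO at day 6 past 2-fold, beside 9.93% of all genes, and none was higher: Slc10a4, a vesicle protein of cholinergic and monoaminergic terminals, at 0.105 against 10.4 FPKM, Prima1, the membrane anchor of Ache, at 0.379 against 1.60 FPKM, and Bche at 0.472 against 1.19 FPKM. Each of these 3 passed 1 FPKM in WT alone. Of 11 monoamine neuron genes, 2 were lower past 2-fold in the same EBs, beside the same 9.93%, and none was higher. They were Th (0.424 against 5.51 FPKM) and Slc18a2 (0.299 against 1.66 FPKM), both above 1 FPKM in WT alone. Slc10a4 was also at 10.1 FPKM in spinal cord, 5.32 FPKM in WT spinal column and 2.25 FPKM in spinal column labelled KO. Colq, the collagen tail that ties Ache to the muscle synapse, was at 3.63 FPKM in WT column against 0.173 FPKM in cord.

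Of 5 further GABA genes, 5 were higher past 2-fold in cord than in WT EBs at day 6, beside 26.1% of all genes. They included the uptake transporter Slc6a11 (217 against 0.189 FPKM) and the GABA transaminase Abat (66.1 against 10.3 FPKM). In EBs labelled KO at day 6, 1 of the 5 was lower past 2-fold than in WT, beside 9.93% of all genes, and 1 was higher, beside 10.5%. The lower one was Abat (4.07 against 10.3 FPKM) and the higher one Slc6a12 (2.67 against 0.274 FPKM). In spinal column labelled KO, 1 of the 5 was lower past 2-fold, beside 8.51% of all genes, Slc6a11 (25.5 against 60.03 FPKM). It is carried mainly by astrocytes, and of 4 astrocyte markers 1 was lower past 2-fold (Aldh1l1 at 4.62 against 10.8 FPKM) with a median log2 ratio of -0.59.

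Of 6 further glycine genes, 5 were lower past 2-fold in cord than in EBs at day 6, beside 34.3% of all genes, and 1 was higher, beside 26.1%. Those lower were enzymes of glycine metabolism that many growing cells use, such as Shmt2 (13.3 against 77.0 FPKM), and the one higher was Slc6a9, the GlyT1 transporter (47.6 against 4.54 FPKM). None of the 6 was past 2-fold between the libraries labelled KO and WT at day 6 or in spinal column. Of 8 further glutamate genes, 4 were higher past 2-fold in cord than in WT EBs at day 6, beside 26.1% of all genes. In that comparison 1 was lower, beside 34.3%. The higher ones included the glial uptake transporter Slc1a3 (120 against 3.76 FPKM). Slc17a8 (VGLUT3) stayed under 1 FPKM in all 11 libraries, with its highest value in cord at 0.911 FPKM. Between the libraries labelled KO and WT, 1 of the 8 was lower past 2-fold and 0 were higher, both at day 6 and in spinal column. The shares of all genes lower were 9.93% and 8.51%. The gene was Slc1a2 at day 6 (0.184 against 3.98 FPKM) and in spinal column (2.99 against 10.6 FPKM).

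The genes with the most similar profiles over the 11 libraries mostly fell into those that peaked in WT EBs at day 6 and those that peaked in cord. They were ranked by Pearson's r of log2(FPKM + 1) among 15482 genes, as a description: the 11 libraries are few and not independent, since 8 of them are cultures of 2 clones. For Slc18a3 the 3 nearest were Celf3 (r = 0.989), Scrt2 (0.986) and Slc10a4 (0.984), all of them above 10 FPKM in WT EBs at day 6. For Chat they were Spp2 (0.976), St18 (0.974) and Lhx4 (0.968), a factor of the motor neuron list. For Slc5a7 they were Htr2a, Pcdh19 and Ankrd34a (0.968 to 0.973), and for Ache they were Thra, Dusp26 and Cldn11 (0.995 to 0.997).

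Among the GABA, glycine and glutamate genes, Slc17a7 again differed from the rest. For Gad1 the nearest genes were Scn3a, Htr2a and Zfpm2 (0.977 to 0.982), for Gad2 Slco1c1, Skor2 and Rasgrf2 (0.998 to 0.999), for Slc32a1 Ntm, Lgi3 and Chadl (0.997 to 0.998), for Slc6a5 Gpr158, Kcnj16 and Cntnap5a (each 0.998), and for Slc17a6 Lgi1, Hoxc11 and Scrg1 (0.999 each to 3 digits). Slc17a7 had no close partner in that set. Its nearest were Hand2 (0.933), a transcription factor of sympathetic neurons among other cells, Wbp1l (0.928) and Ticam1 (0.926).

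TAF9B and RNA POL2 peaks in motor neuron EBs were not found at the RefSeq starts of the 10 genes. No peak of either kind had its midpoint within 500 bp of any of their 12 RefSeq starts or of the 9 gene starts that GENCODE gives under these names. Among their 24 GENCODE transcript starts, 2 alternative starts of Ache had a TAF9B peak within that distance, and none had a RNA POL2 peak. For comparison, 27.8% of the starts of genes above 1 FPKM in WT EBs at day 6 had a TAF9B peak within that distance and 50.9% a RNA POL2 peak, and over all GENCODE gene starts the shares were 11.6% and 19.2%. Within 50 kb, 5 of the 10 genes had a TAF9B peak, beside 45.3% of all gene starts and 67.2% of those of genes above 1 FPKM, so the genes did not stand out. The cells of the ChIP-seq were another line and differentiated for longer (8 days) than the EBs of the RNA-seq at day 6, and the IgG control was not analysed here.

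None of the 4 TAF9B peaks whose windows are printed above overlapped a RNA POL2 peak, whereas a second peak in Ache did. In the shared Chat and Slc18a3 locus, chr14:33253027-33253239 (MACS score 67.7, the peak caller's measure of strength) lay in an intron of Chat, 26.0 kb downstream of the Chat start and 24.9 kb downstream of that of Slc18a3. The other peak there, chr14:33286321-33286456 (score 56.7), was 7.29 kb upstream of Chat and 8.35 kb upstream of Slc18a3, inside Gm2990, a gene of the other strand. The only RNA POL2 peak within 50 kb of either gene lay at the start of the neighbouring gene Ercc6.

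Ache had a TAF9B peak, chr5:137730454-137730576 (score 80.0), 1.03 kb inside the gene, in an exon and 40 bp from the start of an annotated alternative Ache transcript. A second one, chr5:137734642-137734836 (score 91.4), lay 5.26 kb inside the gene, toward the neighbouring gene Ufsp1, and is the one that overlapped a RNA POL2 peak. The peak upstream of Slc17a7, chr7:52417367-52417572 (score 103.0), lay between genes, 1.82 kb before the Slc17a7 start, which was the nearest annotated start. For Slc32a1 the only TAF9B peak was inside the neighbouring gene Actr5, 18.9 kb downstream. Slc5a7, Gad1, Gad2, Slc6a5 and Slc17a6, which were all below 1 FPKM in WT EBs at day 6, had no TAF9B or RNA POL2 peak within 50 kb.

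**Figure D5:**
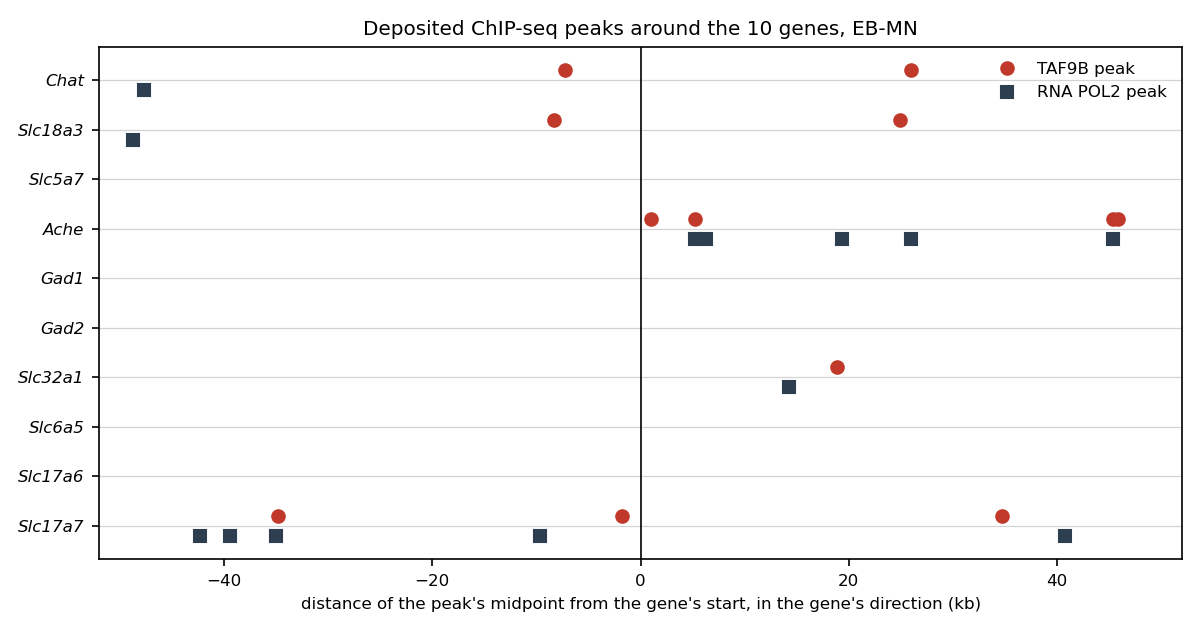
Distance in kb of the midpoint of each TAF9B peak (circles) and RNA POL2 peak (squares) from the start of each of the 10 genes, in the direction of transcription, out to 50 kb on either side, in motor neuron EBs. Peaks lie on both sides of Chat, Slc18a3 and Slc17a7 and only downstream of Ache and Slc32a1, none within 500 bp of the start drawn, and 5 genes have none.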

How the data were processed

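Poly-A RNA-seq of 11 libraries and ChIP-seq peaks of 2 were analysed. The FPKM values were made by the authors with TopHat against RefSeq genes and Cuffdiff (mm9), each pair of libraries in its own table, and were used as deposited. Peaks carry the deposited MACS score, and the authors had aligned those reads to mm9 using Bowtie. Tool versions are not given in the sources used here. Columns with the authors' own fold changes and p-values were not used. WT ES cells stand in 2 tables, and the value beside ES cells labelled KO was taken except against spinal cord (where its values were a median of 1.09 times as high).

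Log2 ratios had no pseudocount, and in medians a gene at 0 stands below or above all ratios. Loci that Cuffdiff marked as failed or too deep, 13 to 71 per table, were left out of the background. Library totals could not be recovered from low values, so no interval for counting error is given. With 1 library per condition no test was made. The counting of genes past 2-fold was checked on simulated FPKM values.

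The members and lists were chosen with earlier results of these data known. Named were the 10 genes, the 3 genes of most similar profile for each, up to 3 genes past 2-fold from each related list and comparison (those with the highest FPKM), and Taf9b. Other genes named were chosen after their values were seen. Of 85 related genes listed, 82 were matched, and a further gene is not reported here. Promoters were matched to mm9 letter by letter, and gene starts and exons are those of GENCODE. Pseudocounts, centring, filters and other sets of transporters were tried as alternatives. Python 3.11.15, numpy 2.4.6 and pandas 2.3.3 were used.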

Additional observations from a re-analysis of the deposited data

Results flagged for a closer look

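The ratio of Taf9b between the libraries labelled KO and WT had opposite signs in cultures and tissue. Among the cultures, the log2 ratio was 2.51 for ES cells, 2.98 for EBs of day 2, 1.12 for EBs of day 4 and 1.55 for EBs of day 6, so that all 4 cultures labelled KO were higher, whereas in spinal column it was -1.01. The difference between cultures and tissue was not tested, since each condition was 1 library.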

How the results depend on the processing

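No paired analysis was made, since each condition was 1 library and the groups compared shared a single replicate number, and none could be left out. The 5 stages with libraries of both labels were not treated as replicate pairs. With 1 FPKM added to each value, the median log2 ratio of the 10 genes between the libraries labelled KO and WT was -0.0045 for ES cells, 0.0022 for EBs of day 2, 0.059 for day 4, -0.023 for day 6 and -0.62 for spinal column, and with 0.1 FPKM added it was 0.015, 0.38, -0.21 and -0.76 from day 2 on. Over the other comparisons the medians with 1 and with 0.1 FPKM added were 3.71 and 5.78 for cord over ES cells, 0.28 and 0.74 for EBs at day 6 over ES cells, 3.76 and 5.90 for cord over EBs, and -1.45 and -1.63 for column over cord. With 1 FPKM added, 0 genes were lower past 2-fold in ES cells labelled KO, 2 in EBs labelled KO at day 6 and 2 in spinal column labelled KO.

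Centred on all genes, the medians were -0.040 in ES cells, 1.14 at day 4, -1.37 at day 6, -0.84 in spinal column, 7.08 for cord over ES cells, 0.21 for EBs at day 6 over ES cells, 7.14 for cord over EBs and -1.60 for column over cord. Over members above 1 FPKM alone they were -0.51 in ES cells, -4.17 at day 6, -0.96 in spinal column, 7.49 for cord over ES cells, 3.31 for EBs at day 6 over ES cells and -1.62 for column over cord, and no value could be had at day 2 or day 4. With the other table for WT ES cells, the medians were 6.94 for cord and 0.29 for EBs at day 6.

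Without a filter on low values, the genes lower past 2-fold were 2 for ES cells labelled KO, 1 for EBs of day 2, 1 for day 4 and 5 for day 6, 1 in cord over ES cells and 5 in EBs at day 6 over ES cells, and those higher were 1 at day 2, 6 at day 4 and 2 at day 6. With 1 FPKM asked of both libraries, 0 were lower at day 6 labelled KO, 2 were higher in cord over ES cells, 0 were lower and 0 higher in EBs at day 6 over ES cells, 0 were lower and 1 higher in cord over EBs, and 0 were higher in column over cord.

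With Chat in place of Slc18a3, the shares of acetylcholine, of GABA and glycine and of glutamate were 20.2%, 14.6% and 65.2% in WT EBs at day 6 (glutamate in place of acetylcholine as the largest), 0%, 28.3% and 71.7% in those labelled KO, 0.248%, 43.7% and 56.0% in WT spinal column, 0.605%, 50.4% and 49.03% in that labelled KO, and 0.616%, 53.0% and 46.3% in cord. With Slc17a8 added, glutamate held 9.38% in WT EBs at day 6 and 41.6% in spinal column labelled KO. Relative to the general neuron median in spinal column labelled KO, 1 FPKM added (an alternative chosen after seeing the data) turned Gad2 from below to 0.066 above and Slc17a6 from above to -0.017. No median of a comparison changed sign under any of these alternatives. Values under 1 FPKM carry the least weight, since the depth behind them is unknown.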
